A study of Rattus norvegicus with 113 samples.

Results

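Expression of 8 genes of the CC chemokine family, the ligands Ccl2, Ccl3, Ccl4, Ccl5, Ccl7 and Ccl20 and the receptors Ccr1 and Ccr2, was examined in rat hippocampus and cortex after traumatic brain injury (TBI). A probe belonged to 1 of these genes where its transcript accession led to that rat symbol in RefSeq, and all 8 were found among 16691 genes named in this way on the arrays. Ccl20 had 2 probes on each array design and the other 7 genes had 1 probe each.

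CC chemokines are small secreted proteins that draw monocytes, macrophages and T cells into injured tissue, and each acts through receptors with overlapping ligand preferences on the surface of those cells. Ccl2 and Ccl7 are the main ligands of Ccr2, the receptor that releases inflammatory monocytes from bone marrow and guides them into tissue. Ccl3 and its close relative Ccl4 attract macrophages, and Ccl3 and Ccl5 bind Ccr1, a receptor of monocytes and neutrophils. Ccl20 binds Ccr6 on lymphocytes and dendritic cells. In brain, activated microglia and astrocytes as well as arriving blood cells can make these ligands.

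Adult male Sprague-Dawley rats received a severe parasagittal fluid percussion injury on the right side after surgery under isoflurane, once that had been stopped and reflexes were back (TBI), the same anesthesia and surgery with no injury (sham), or neither anesthesia nor handling (naive). Whole hippocampus and a small piece of cortex near the injury were taken at 24 hr and 2 weeks and at 3, 6 or 12 months, and each RNA sample was hybridized to a 1-color Agilent rat array. Each tissue, interval and treatment had 4 rats, except that the hippocampus at 24 hr had 2 sham and 3 TBI arrays and no naive array. The methods describe both tissues of 4 rats per treatment at each interval, so hippocampus and cortex may share rats at all of them. Only at 2 weeks and 6 months were hippocampus and cortex arrays with the same treatment and number taken to come from the same rat. At 6 months such arrays correlated between 0.231 and 0.475 in sham and TBI, but between -0.383 and 0.095 in naive. Array counts over both tissues may thus hold the same rat more than once at any interval. Because the tissue pieces were not sorted into cells, a lower level from fewer cells of a type cannot be told apart from less RNA per cell.

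Levels are given as log2 of the scanner signal above the median of the array, so that 0 is the median probe and each unit is a doubling. Feature Extraction, the software that reads the scans, marks a spot as well above background, and between 41.3% and 93.0% of probes (median 56.0%) were so marked per array. No probe was saturated. Hippocampus arrays of 24 hr and 3 months used a smaller array design of 30367 probes (17 arrays) and all others a larger one of 45598 probes (96 arrays), with 19277 probes in common. The highest share, 93.0%, belonged to replicate 3 of the cortex sham group at 2 weeks, which stood apart from all others. The median difference of all tested probes between TBI and sham was 0.95 on the log2 scale in the cortex at 2 weeks, against 0.12 in the cortex at 24 hr. The deposited name of replicate 4 of the cortex sham group at 24 hr carried 2 animal numbers, and the main results that rest on either array are also given without it. At 2 weeks the mean level of 4 hippocampal identity markers was between 3.78 and 4.24 in the hippocampus arrays and between 0.41 and 3.71 in the cortex arrays, while 5 cortical markers overlapped between the tissues.

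By position in the rat assembly GRCr8, Ccl2 and Ccl7 are direct neighbors on chromosome 10 and so are Ccl3 and Ccl4, with 4 genes between Ccl5 and Ccl3. Ccr1 and Ccr2 lie on chromosome 8 with 3 genes between them, and Ccl20 lies on chromosome 9. RefSeq promoter windows, 250 bases before to 50 after a start site, were at hand for 4 of the 8 genes. Those of Ccl7 and Ccr1 were placed at the start of the gene as RefSeq lists it, while those of Ccr2 and Ccl20 were placed at another start and are not described. The window of Ccl7 (chr10:67513845-67514144, plus strand) is shown because Ccl7 had one of the larger differences below. Capitals mark 3 motifs searched on both strands. The first is TGANTCA, a loose AP-1 type motif in which N is any base, so that a match counts on both strands. In the Ccl7 line that base is T. Next comes an NF-kB type motif, whose match stands between the other capitals of the Ccl7 line, and last the TATA box, TATAAA.
Ccl7: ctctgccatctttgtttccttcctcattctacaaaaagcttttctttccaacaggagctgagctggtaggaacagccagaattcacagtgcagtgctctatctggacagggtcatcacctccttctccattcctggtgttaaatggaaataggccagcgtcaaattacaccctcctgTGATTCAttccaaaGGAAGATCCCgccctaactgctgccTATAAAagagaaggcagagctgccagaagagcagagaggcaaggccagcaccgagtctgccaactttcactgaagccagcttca
The Ccl7 window held all 3, the AP-1 type motif 73 bases before the start, the NF-kB type motif 59 bases before it on the opposite strand, and the TATA box 34 bases before it, with no overlap among them. Of 33469 RefSeq rat promoter windows of this length, 7.33% held the AP-1 type motif, 1.3% the NF-kB type motif and 14.2% the TATA box. The window of Ccr1 held none of these motifs, and a match or its absence is a description of the sequence only.

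Across all arrays, Ccl5 was well above background in 112, Ccl3 in 54, Ccl2 in 46, Ccl7 in 42, Ccl4 in 39, Ccr1 in 18, Ccr2 in 10 and Ccl20 in 7. At 24 hr Ccl2 was detected in 7 of 7 TBI arrays of both tissues, 4 of 6 sham arrays and 3 of 4 naive arrays. At 2 weeks the counts were 7 of 8 TBI, 1 of 8 sham and 0 of 8 naive arrays. By 12 months they were 2 of 8 TBI, 6 of 8 sham and 2 of 8 naive arrays, so that detection no longer followed injury.

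**Figure D1:**
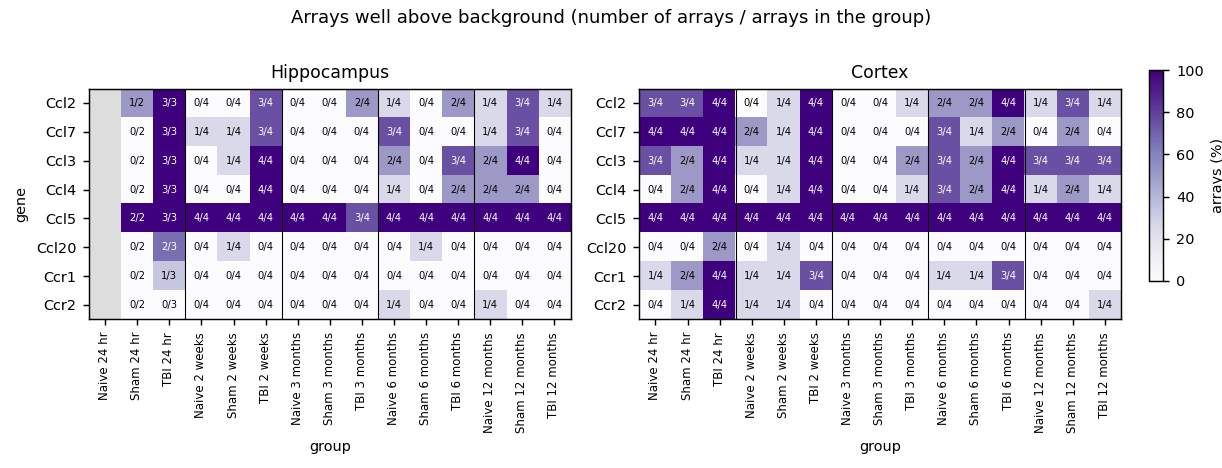
Number of arrays well above background of all arrays in a group for each of the 8 genes, by tissue, interval and treatment, with darker cells for a higher share. Ccl5 is detected in every group, while Ccl2, Ccl3 and Ccl4 are detected in most TBI arrays at 24 hr and 2 weeks and in few sham or naive arrays of 2 weeks.

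The first comparison asked which of these genes differed between injured and sham hippocampus 1 day after injury. The monocyte ligands Ccl2 and Ccl7 and the macrophage ligands Ccl3 and Ccl4 rose, 4 of the 5 genes that could be tested, against 5.63% of all 16737 tested probes that rose in this comparison. These 4 genes entered the test only through the TBI arrays, because not every sham array detected them. Their count can therefore not be weighed against that share. All 3 TBI arrays lay above both sham arrays in 7 of the 8 genes, a pattern shown by 23.1% of the tested probes.

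Ccl2 lay at -1.84 and 0.17 in the 2 sham arrays and at 6.39, 5.61 and 4.22 in the 3 TBI arrays of the 24 hr hippocampus. Every TBI array was far above both sham arrays, of which only the second was well above background. The difference was 6.24 on the log2 scale (SE 0.78), a 75.7-fold higher level, with an adjusted p of 0.00748 by limma. Ccl7 lay at -2.40 and -1.45 in sham, neither well above background, and at 5.19, 4.67 and 3.41 in TBI. The order of the 3 TBI arrays was the same for both genes. Against the dimmest signal that counted as detected in the sham arrays, Ccl7 was at least 71.6-fold higher (limma adjusted p = 0.00363).

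Ccl3 was not well above background in the sham arrays, at -1.80 and -2.24, and lay at 1.69, 2.25 and 0.08 in the TBI arrays. Ccl4, its neighbor on the chromosome, lay at -1.97 and -1.81 in sham and at 1.67, 2.35 and -0.03 in TBI. In both genes the third TBI array was the lowest of the 3 and still above both sham arrays. Ccl3 was at least 9.95-fold higher (limma adjusted p = 0.0202) and Ccl4 at least 9.30-fold higher (limma adjusted p = 0.0267).

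Ccl5, which also attracts T cells, lay at 0.33 and -0.21 in sham and 2.55, 1.53 and 0.93 in TBI, well above background in all 5 arrays. The groups did not overlap, but the difference of 1.61 (SE 0.46) did not pass the test over all probes, with a limma adjusted p of 0.0697. Ccl20 was well above background in 2 of the 3 TBI arrays (-2.14, -0.69 and -0.22) and in neither sham array (-3.22 and -3.02), a ratio of at least 2.10-fold with no test. Its other probe was well above background in 1 of the 3 TBI arrays, with levels of -2.01, -1.86 and -1.14.

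The receptors were dim in this tissue. Ccr1 lay at -1.16, -0.51 and -1.90 in TBI, well above background in the second array only, and at -3.01 and -2.79 in sham, a ratio of at least 1.87-fold with no test. Ccr2 was not well above background in any of the 5 arrays, with -1.15, -3.54 and -1.93 in TBI. Its ligands Ccl2 and Ccl7 had their highest group means of the hippocampus on these same TBI arrays.

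With only 2 sham and 3 TBI arrays, Ccl2 and Ccl7 passed the test without any 1 of the 5 arrays, while Ccl3 and Ccl4 were both lost without sham replicate 1 (limma adjusted p = 0.0822 and 0.119), sham replicate 2 (0.107 and 0.115) or TBI replicate 1 (0.0548 and 0.0713), where Ccl20 could be tested and passed (2.66, 0.00964). With the normexp background, which damps dim signals, the differences in the 24 hr hippocampus were smaller, 4.23 for Ccl2, 3.74 for Ccl7, 1.24 for Ccl3 and 1.23 for Ccl4, and all 4 passed (limma adjusted p = 0.049 for Ccl4). With no filter on dim probes, or in the test without shared spread, none of the 4 passed. Leaving out a sham array assumes that the lone one left varies like the TBI arrays. TBI replicate 1 was the lowest TBI array for Ccl20, so leaving it out raises the Ccl20 difference by itself. Sham and TBI arrays of this set lay on different slides that were scanned on different days, so slide and injury cannot be told apart.

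**Figure D2:**
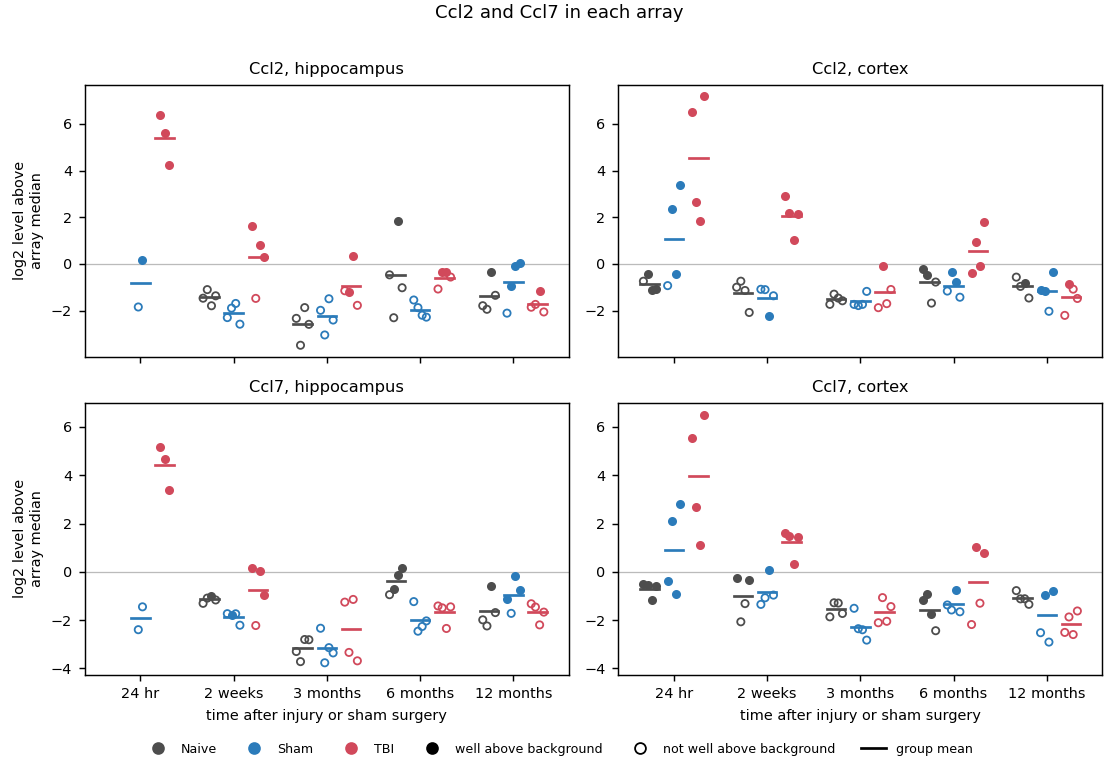
Ccl2 and Ccl7 level of every array (log2 above the array median, vertical axis) by tissue, interval and treatment, with filled points for arrays well above background, open points for the others and a bar at each group mean. Ccl2 in TBI arrays of 24 hr lies between 4.22 and 6.39 in the hippocampus and between 1.82 and 7.18 in the cortex.

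In the cortex at 24 hr the genes were compared with both controls. Against naive rats, 7 of 7 testable genes rose, namely Ccl2, Ccl7, Ccl3, Ccl4, Ccl5 and both receptors, where 6.35% of all 25938 tested probes rose. Against sham only Ccl4 passed, where 0.282% of 25866 probes rose, and its adjusted p of 0.0499 lay at the threshold. At an unadjusted p under 0.05 all 7 genes were higher in TBI than in sham, where 20.9% of probes passed in either direction. The comparisons with sham and with naive share their TBI arrays. Except for Ccl5 and Ccl7, the genes entered both tests only through the TBI arrays. These counts can therefore not be weighed against the shares of all probes.

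Ccl2 lay at -0.74, -0.44, -1.103 and -1.09 in naive cortex, at -0.93, 2.34, -0.42 and 3.37 in sham, and at 6.502, 2.66, 1.82 and 7.18 in TBI. Sham replicates 2, 3 and 4 were above every naive array, replicate 3 only just, and replicates 2 and 4 exceeded the lowest TBI array, replicate 3. Ccl2 was 41.7-fold higher in TBI than in naive (log2 difference 5.38, SE 1.21, limma adjusted p = 0.0149), while the difference from sham was 3.45 (SE 1.21, limma adjusted p = 0.137).

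In Ccl7 the sham replicates 1, 2 and 4 stood above every naive array. It lay at -0.49, -0.55, -1.15 and -0.57 in naive, at -0.37, 2.10, -0.91 and 2.79 in sham, and at 5.55, 2.69, 1.11 and 6.504 in TBI, well above background in all 12. It was 25.2-fold higher in TBI than in naive (limma adjusted p = 0.0176). Against sham the difference was 3.06 (SE 1.099, limma adjusted p = 0.145), and between sham and naive it was 1.59 (SE 1.08, limma adjusted p = 0.318).

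Ccl3 lay at -1.74, -0.14, -2.49 and 0.29 in sham and at 3.24, 1.499, 0.73 and 3.91 in TBI, with naive arrays between -2.08 and -1.25. Ccl4 lay at -1.69, -0.72, -1.43 and -0.32 in sham and at 2.48, 1.11, 0.53 and 3.13 in TBI, with naive arrays between -2.54 and -1.23, none of them well above background. For both genes all TBI arrays lay above all sham and naive arrays, and 11.1% of tested probes were so ordered against sham. Ccl4 was 7.22-fold higher than in sham (log2 difference 2.85, SE 0.52) and at least 9.05-fold higher than in naive (limma adjusted p = 0.00745). Ccl3 was 15.9-fold higher than in naive (limma adjusted p = 0.00852), and its difference from sham of 3.36 had a limma adjusted p of 0.0627.

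Ccl5 was well above background in all 12 arrays and had the narrowest spread. It lay at 1.44, 1.21, 0.84 and 0.88 in naive, at 0.69, 2.00, 1.11 and 1.65 in sham, and at 2.502, 2.96, 2.60 and 2.54 in TBI. Every TBI array was above every control array. Ccl5 was 2.95-fold higher in TBI than in naive (limma adjusted p = 0.00757), and 1.29 higher than in sham on the log2 scale (SE 0.25, limma adjusted p = 0.0555).

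**Figure D3:**
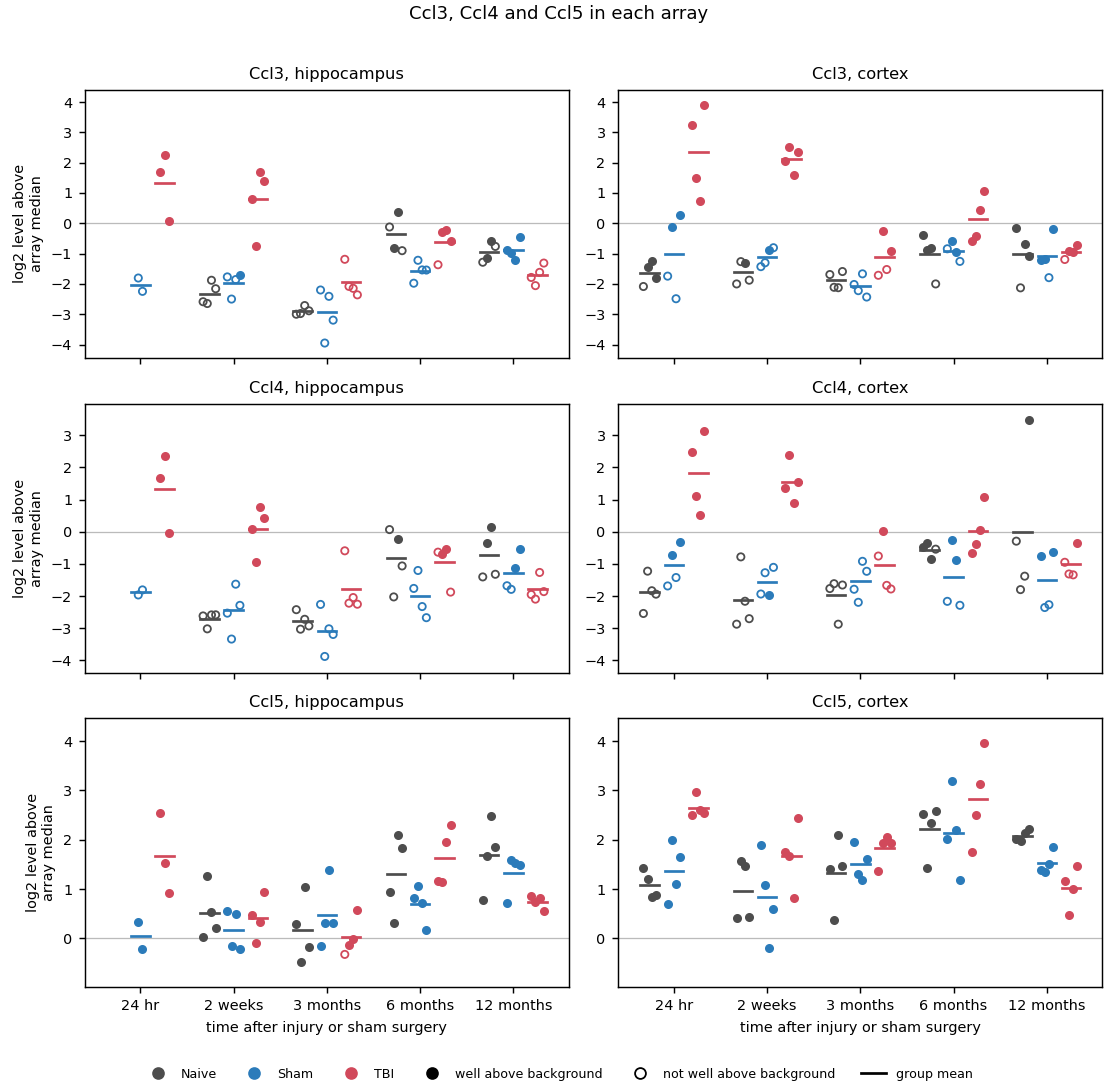
Ccl3, Ccl4 and Ccl5 level of every array (log2 above the array median, vertical axis) by tissue, interval and treatment, with filled points for arrays well above background, open points for the others and a bar at each group mean. Ccl5 in cortex at 24 hr lies between 2.502 and 2.96 in TBI, above all sham and naive arrays of that interval.

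Both receptors were measurable in the cortex at 24 hr. Ccr2 lay at 0.28, 0.47, -0.57 and 0.22 in TBI, all well above background, and at -2.96, -1.49, -2.99 and -0.24 in sham, where only replicate 4 was detected. Sham replicate 4 was above TBI replicate 3, so the groups overlapped at 1 array. Ccr2 was at least 3.68-fold higher than in naive rats, none of whose arrays detected it (limma adjusted p = 0.00867), and differed from sham by 2.02 (SE 0.56, limma adjusted p = 0.0890).

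Ccr1 lay at -2.25, -2.22, -2.54 and -0.94 in naive, at -1.17, -0.45, -2.25 and 0.22 in sham, and at 1.63, 0.07, -0.95 and 2.16 in TBI. TBI replicate 3 lay below naive replicate 4 and sham replicates 2 and 4. Ccr1 was 6.55-fold higher in TBI than in naive (limma adjusted p = 0.0218), and 1.64 higher than in sham (SE 0.68, limma adjusted p = 0.196). Ccl20 was detected by both probes in TBI replicates 1 and 4 (0.51 and 0.21 by the brighter probe, 0.16 and -0.94 by the other) and by neither probe in any other array of this set.

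Some leukocyte markers were also higher in sham replicates 2 and 4 of this set, and not every marker followed the ligands. The macrophage protein Cd14 lay at 1.70, 4.09, 2.12 and 4.42 in sham replicates 1 to 4, and the neutrophil protein S100a8 at -0.61, 2.06, -0.21 and 3.30. The mean level of 7 macrophage and monocyte markers ranged from 1.65 to 2.07 in naive, 2.06 to 3.21 in sham and 3.11 to 4.03 in TBI arrays, and that of 7 neutrophil markers from -1.69 to -1.03, -1.37 to -0.07 and -1.56 to 0.78. The cytotoxic granule gene Nkg7 lay at 0.83, 0.93, 0.59 and 0.04 in TBI, lowest in replicate 4, where Ccl2 was highest. The T cell gene Cd8a, from the same marker list, lay at 1.95, 0.06, -1.39 and 2.47 in TBI, the order of Ccl2. In sham it lay at -2.96, -0.97, -2.99 and -0.71, in no array well above background. Of the neutrophil markers, the granule protein gene Ltf was not well above background in any of the 12 arrays. Their part in the chemokine levels was not tested.

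Leaving out sham replicate 4, whose file carried 2 animal numbers, gave differences from sham of 4.21 for Ccl2 (limma adjusted p = 0.106), 3.80 for Ccl3 (0.0595), 1.38 for Ccl5 (0.0645), 3.695 for Ccl7 (0.119), 2.01 for Ccr1 (0.158) and 2.58 for Ccr2 (0.0578), and Ccl4 was lost (0.0578), as it was without any other array of the comparison (up to 0.138, without sham replicate 3) except TBI replicate 3. Without TBI replicate 3, Ccl3, Ccl4, Ccl5 and Ccl7 passed against sham by limma. That array was the lowest TBI array for Ccl3, Ccl4 and Ccl7, so leaving it out raises those differences by itself. Without TBI replicate 1, Ccl2 (limma adjusted p = 0.0543), Ccl7 (0.0621) and Ccr1 (0.0736) were lost against naive. Ccl7 was also lost against naive without TBI replicate 4 (0.0529), and Ccr1 without TBI replicate 4 (0.0664), naive replicate 2 (0.0575) or naive replicate 3 (0.0559). With the normexp background the differences from naive in the 24 hr cortex were 3.82 for Ccl2, 3.31 for Ccl7, 2.13 for Ccl3, 1.68 for Ccl4, 1.20 for Ccl5, 1.09 for Ccr1 and 0.85 for Ccr2, and all 7 passed. TBI arrays of this set lay on another slide than sham and naive arrays, so slide and injury cannot be told apart.

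**Figure D4:**
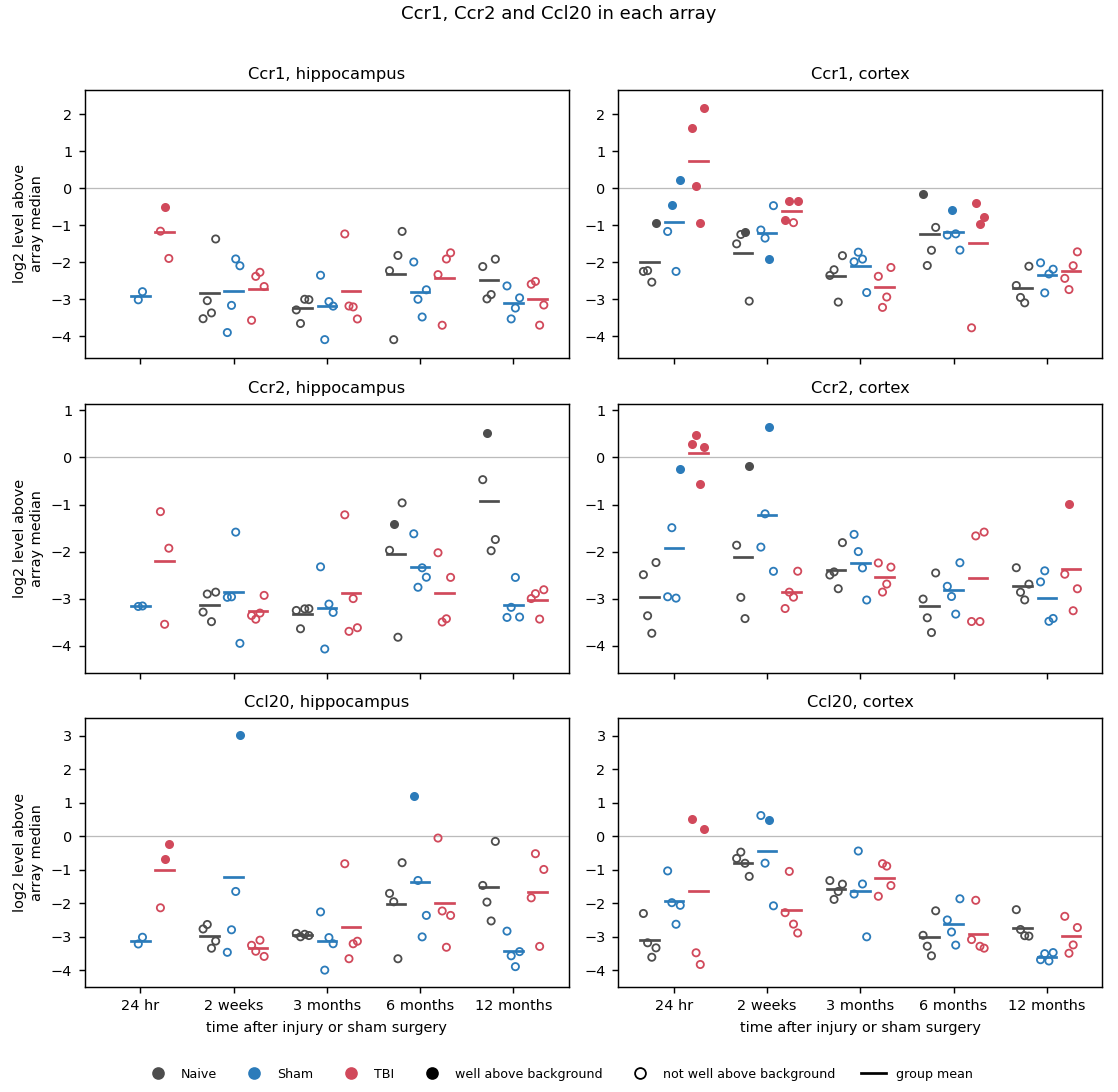
Ccl20, Ccr1 and Ccr2 level of every array (log2 above the array median, vertical axis) by tissue, interval and treatment, with filled points for arrays well above background, open points for the others and a bar at each group mean. Filled Ccr2 points of TBI arrays cluster in the cortex at 24 hr, between -0.57 and 0.47.

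At 2 weeks the question was whether the ligands were still raised. In the hippocampus Ccl3 and Ccl4 rose against sham, 2 of 3 testable genes where 0.92% of 25106 probes rose, and against naive, where 4.04% of 25193 probes rose. Both genes entered these tests only through the TBI arrays, so their count cannot be weighed against the shares of all probes. Sham and TBI arrays of this set shared a slide, and naive arrays lay on another, so slide and injury cannot be told apart against naive. Ccl3 lay at -1.77, -2.498, -1.85 and -1.70 in sham, where only replicate 4 was well above background, and at 0.81, -0.73, 1.71 and 1.399 in TBI. Ccl4 lay at -2.53, -3.34, -1.63 and -2.29 in sham and at 0.09, -0.94, 0.78 and 0.43 in TBI.

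All TBI arrays lay above all sham arrays for both genes, as in 2.56% of tested probes, with TBI replicate 2 the lowest. Naive arrays lay between -2.65 and -1.88 for Ccl3 and between -3.02 and -2.58 for Ccl4, none of them well above background. Ccl3 was higher than in sham by 2.75 on the log2 scale, with 3 of 4 sham arrays not well above background (SE 0.44, limma adjusted p = 0.0272), and at least 5.88-fold higher than in naive (adjusted p = 0.00227). Ccl4 was at least 3.26-fold higher than in sham (limma adjusted p = 0.0238) and at least 3.62-fold higher than in naive (adjusted p = 0.00194). These contrasts share their TBI arrays.

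Ccl2 lay at -2.30, -1.89, -1.69 and -2.58 in sham, none well above background, and at 1.62, -1.48, 0.83 and 0.29 in TBI of the 2-week hippocampus. TBI replicate 2 was again the lowest and was the only TBI array not well above background, which kept Ccl2 and Ccl7 out of the test. Ccl2 was at least 3.57-fold higher than in sham. Ccl7 lay at 0.16, -2.22, 0.05 and -0.95 in TBI and between -2.21 and -1.73 in sham. Without TBI replicate 2, 4 genes passed against sham, with differences of 3.03 for Ccl2 (limma adjusted p = 0.00163), 3.26 for Ccl3 (0.000856), 2.88 for Ccl4 (0.00218) and 1.62 for Ccl7 (0.00628). That array was the lowest TBI array for all 4 genes. Leaving it out raises the differences and lets Ccl2 and Ccl7 into the test by itself, so these values are no added support.

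Both calls against sham were lost without any 1 of sham replicates 2, 3 and 4 and TBI replicates 3 and 4, the highest adjusted p being 0.108 for Ccl3 and 0.102 for Ccl4, without TBI replicate 3. With the normexp background the differences from sham were 1.21 for Ccl3 and 0.87 for Ccl4 (limma adjusted p = 0.0151 and 0.00725). Against naive, both passed under all 17 alternatives. Ccl5 did not pass, with a difference from sham of 0.24 (SE 0.30, limma adjusted p = 0.645). Neither receptor was well above background in any of the 12 hippocampus arrays of 2 weeks.

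In the cortex at 2 weeks Ccl3 rose against sham, the only one of 5 testable genes to pass where 0.00848% of 23578 probes rose. Against naive Ccl2, Ccl3 and Ccl4 rose, 3 of 5, where 0.124% of 24100 probes rose. Except for Ccl5, the testable genes entered both tests only through the TBI arrays. These counts can therefore not be weighed against the shares of all probes. Ccl3 lay at -1.43, -1.30, -0.89 and -0.81 in sham and at 2.05, 2.52, 1.59 and 2.35 in TBI. Ccl2 lay at -1.09, -1.101, -2.23 and -1.36 in sham and at 2.89, 2.20, 1.04 and 2.12 in TBI.

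For Ccl2, Ccl3, Ccl4 and Ccl7 every TBI array lay above every sham array, as in 14.3% of tested probes. Ccl3 was 9.41-fold higher than in sham (log2 difference 3.23, SE 0.41, limma adjusted p = 0.0360) and 13.4-fold higher than in naive (adjusted p = 0.00688). Ccl2 differed from sham by 3.51 (SE 0.51, limma adjusted p = 0.0564) and was at least 9.43-fold higher than in naive (adjusted p = 0.0353). Ccl4 lay at -1.94, -1.28, -1.98 and -1.11 in sham and at 1.36, 2.39, 0.88 and 1.54 in TBI and was at least 7.77-fold higher than in naive (limma adjusted p = 0.0295), with a difference of 3.12 from sham (SE 0.54, limma adjusted p = 0.0929).

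Sham replicate 3, the array that stood apart, was the only sham array with Ccl2 and Ccl4 marked well above background, although its Ccl2 level was the lowest of the 4. Without it, 4 genes passed against sham, with differences of 3.25 for Ccl2 (limma adjusted p = 1.42e-09), 3.31 for Ccl3 (3.46e-10), 2.98 for Ccl4 (6.01e-08) and 2.36 for Ccl7 (1.45e-05). The share of all probes called without that array is not given here, so this count cannot be set against it. Ccl5 did not pass with this array (0.83, SE 0.56, limma adjusted p = 0.504) or without it (0.48, adjusted p = 1).

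Ccl7 lay at 1.63, 1.49, 0.33 and 1.46 in TBI and at -1.35, -1.07, 0.10 and -0.96 in sham, where replicate 3 was the highest. The difference was 2.05 (SE 0.55, limma adjusted p = 0.376). Ccr2 was not well above background in any TBI array of the 2-week cortex (-3.21, -2.86, -2.97 and -2.42), and Ccr1 was in 3 of 4 (-0.86, -0.35, -0.93 and -0.35), against 1 of 4 sham and 1 of 4 naive arrays. All TBI arrays lay above all naive arrays for Ccr1, by 1.12 in the mean with no test and no share of all probes so ordered. Without any other array Ccl3 did not pass against sham (limma adjusted p up to 0.329, without TBI replicate 4), and against naive it was lost without naive replicate 1 (0.0719) or TBI replicates 1 (0.0602), 2 (0.0675) or 4 (0.0735), Ccl4 was lost without any array but naive replicate 2 (0.0356), and Ccl2 without any 1 of the 8 arrays (0.0507 to 0.205). Naive replicate 4 had the most probes well above background of the 4 naive arrays (65.2%, the others between 53.8% and 58.4%), and the median of all probes in this contrast was 0.41. With the normexp background Ccl3 differed from sham by 1.82 and from naive by 1.89 and passed, while the differences of Ccl2 and Ccl4 from naive were 1.64 and 1.39 (limma adjusted p = 0.223 and 0.175). TBI arrays of this set lay on another slide than sham and naive arrays, so slide and injury cannot be told apart.

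At 3 and 6 months no gene of the family passed in either tissue, with between 1 and 4 testable genes per comparison. Against sham, 0.0134% of probes were called in the hippocampus at both intervals, while the cortex had 0% at 3 months and 0.0805% at 6 months. Against naive the shares were 0.0062% and 3.77% for hippocampus, and 0.307% and 0.249% for cortex. In the hippocampus at 3 months, where TBI and sham shared a slide, Ccl2 was well above background in TBI replicates 2 and 3 only (-1.15, -1.20, 0.34 and -1.77) and in no sham array (between -3.04 and -1.49), a ratio of at least 1.94-fold with no test. Ccl5 was the only gene tested there, with a difference of -0.44 (SE 0.36, limma adjusted p = 0.882). In the 3-month cortex the Ccl5 difference was 0.32 (SE 0.30, limma adjusted p = 0.999).

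At 6 months Ccl5 lay at 0.81, 1.06, 0.71 and 0.18 in sham and at 1.15, 1.15, 1.96 and 2.29 in TBI hippocampus. The groups did not overlap, a pattern in this direction of 7.59% of the tested probes, and the difference was 0.95 (SE 0.33, unadjusted p = 0.00876, limma adjusted p = 1). Ccl2 and Ccl3 were well above background in no sham array and in 2 and 3 of 4 TBI arrays of the same set. The Ccl2 levels there were -1.07, -0.34, -0.36 and -0.56 in TBI and between -2.28 and -1.54 in sham. In both tissues the TBI arrays of 6 months lay on another slide than sham and naive arrays, so slide and injury cannot be told apart.

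In the cortex at 6 months Ccl2 lay at -1.16, -0.35, -0.77 and -1.43 in sham and at -0.39, 0.93, -0.07 and 1.82 in TBI. Only the first TBI array fell within the range of sham. The differences from sham were 1.49 for Ccl2 (SE 0.46, limma adjusted p = 0.299), 1.42 for Ccl4 (SE 0.46, adjusted p = 0.325) and 1.05 for Ccl3 (SE 0.39, adjusted p = 0.397), where 0.0805% of 24856 probes were called. At an unadjusted p under 0.05 all 3 passed, as did 10.1% of probes. These 3 genes entered the test only through the TBI arrays, so the count cannot be weighed against that share. In these TBI arrays some choroid plexus genes were also higher, with the transthyretin gene Ttr at 9.70, 10.15, 7.29 and 6.81 in TBI against 2.42, 0.06, 6.01 and 4.27 in sham, and the mean of 5 such markers at 1.32 to 3.97 against -1.35 to 0.23. Not every marker of that list separated, and Kcnj13 lay at 0.37, 2.57, 1.42 and 2.14 in TBI against 1.74, 1.85, 1.67 and 0.54 in sham. The macrophage protein Cd68 lay at 0.95, 1.63, 2.17 and 3.504 in TBI and between 0.96 and 1.43 in sham. Naive replicate 4 lay above all of these at 3.799, and the other naive arrays between 0.896 and 1.113. The mean of 7 macrophage and monocyte markers overlapped, at 1.319 to 3.317 in TBI against 1.931 to 2.481 in sham. The part of these cells in the chemokine levels was not tested.

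At 12 months Ccl5 was lower in injured than in naive cortex. It lay at 2.01, 1.97, 2.13 and 2.21 in naive, at 1.39, 1.34, 1.51 and 1.86 in sham, and at 1.17, 0.48, 0.99 and 1.47 in TBI. All naive arrays lay above all sham and all TBI arrays, while sham and TBI overlapped. The share of all probes so ordered is not given here. The difference of TBI from naive was -1.05 (SE 0.18, limma adjusted p = 0.00662), a level of 0.482 times that of naive rats, where 1.82% of 23160 probes were lower, and it passed in all 17 alternatives. It split into -0.56 between sham and naive (SE 0.18, limma adjusted p = 0.128) and -0.50 between TBI and sham (SE 0.18, limma adjusted p = 0.812, with 0% of probes called), neither of which passed. Naive arrays of this set lay on another slide than sham and TBI arrays, so slide and treatment cannot be told apart in the comparison with naive. On the same contrast 2 of 7 microglial and 1 of 5 macrophage and monocyte markers fell, as did 1 of 5 endothelial, 1 of 5 oligodendrocyte and 1 of 7 inducer and NF-kB genes, while 1 of 2 T and NK cell markers rose, and their part in the Ccl5 difference was not tested.

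The hippocampus at 12 months held no call of these genes, where 0% of all probes were called against sham and 3.25% against naive. Ccl5 lay at 0.77, 1.67, 2.48 and 1.86 in naive, at 0.71, 1.58, 1.54 and 1.49 in sham and at 0.87, 0.74, 0.82 and 0.55 in TBI, with a difference of -0.95 from naive (SE 0.30, limma adjusted p = 0.0868). Here too the naive arrays lay on another slide than sham and TBI arrays. Ccl3 was well above background in 4 of 4 sham arrays (-0.87, -0.99, -1.21 and -0.46) and in no TBI array (-1.78, -2.06, -1.62 and -1.31). All TBI arrays were below all sham arrays, a ratio of at least 1.42-fold, and the share of all probes so ordered is not given here. The test gave a difference of -0.81 (SE 0.20, unadjusted p = 0.00192, limma adjusted p = 0.213).

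Sham and naive rats did not differ in any of these genes by the test at any of the 9 tissue and interval sets with naive arrays. Of all probes the contrast called 8.73%, 0%, 3.47% and 3.31% in the hippocampus at 2 weeks and at 3, 6 or 12 months, and 19.1%, 0%, 0.328%, 0% and 4.51% in the cortex at 24 hr, 2 weeks and the same later intervals. No more than 2 of the genes could be tested in any of these sets. In the hippocampus at 6 months, where both groups shared a slide, Ccl7 was well above background in 3 of 4 naive arrays (-0.95, -0.69, -0.13 and 0.17) and in no sham array (-1.23, -2.46, -2.26 and -2.03), at least 1.54-fold lower in sham with no test. These naive arrays were uneven, with 48.97%, 72.53%, 59.25% and 41.26% of all probes well above background. The sham arrays had between 46.63% and 56.82%.

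**Figure D5:**
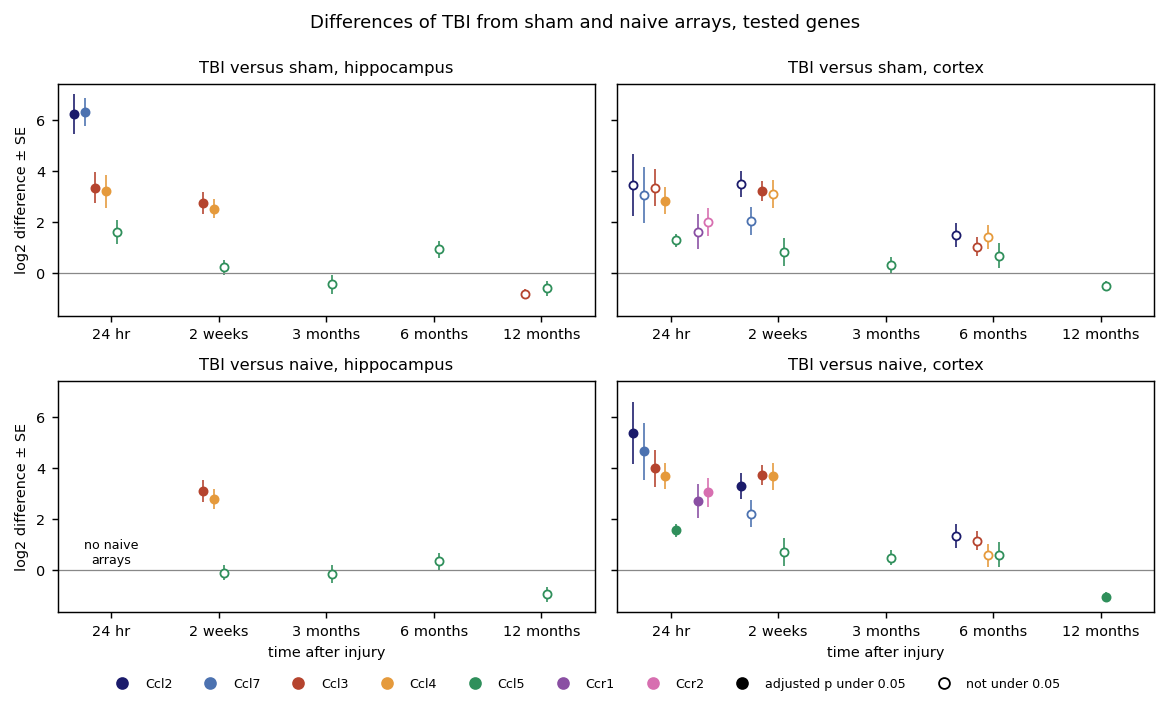
Log2 difference of TBI from sham (upper panels) and from naive (lower panels), with its SE as bars, for the genes that could be tested, by interval and tissue, with filled points for an adjusted p under 0.05 by limma. Filled points of the upper panels are Ccl2, Ccl3, Ccl4 and Ccl7 in the hippocampus at 24 hr, Ccl3 and Ccl4 in the hippocampus at 2 weeks, Ccl4 in the cortex at 24 hr and Ccl3 in the cortex at 2 weeks.

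Whether the effect of injury differed between the tissues was tested directly. The main fit treated arrays of both tissues as separate rats at every interval, although both tissues may come from the same rats. No gene of the family passed at any of the 5 intervals, where the share of probes called was 2.33% at 24 hr, 0.004% at 6 months and 0% at 2 weeks, 3 months and 12 months. At 24 hr the effect on Ccl2 was 2.79 higher in the hippocampus than in the cortex (SE 2.12, limma adjusted p = 0.576) and that on Ccl7 3.28 higher (SE 1.87, limma adjusted p = 0.444), wide errors that do not show equal effects. Without cortex sham replicate 4 these were 2.03 (limma adjusted p = 0.726) and 2.65 (0.575). The effect on Ccl3 differed by -0.001 (SE 1.28). At an unadjusted p under 0.05 only Ccl3 at 12 months passed (-0.96, unadjusted p = 0.0251, limma adjusted p = 0.427).

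Within the cortex, the effect of TBI at each later interval was set against that at 24 hr. The effect on Ccl5 was 1.29 at 24 hr and -0.50 at 12 months, and fell by 1.78 on the log2 scale (SE 0.36, limma adjusted p = 0.0439), where 0.626% of 26378 probes fell. It passed in 5 of 24 alternatives, with an adjusted p of 0.0539 without cortex sham replicate 4 of 24 hr, 0.0776 with the replicate block and up to 0.255 with the 75th percentile. The other tested genes had differences between -3.71 (Ccl2) and -1.41 (Ccr2) that did not pass. At 3 months (0% of probes called) and 6 months (0.00382%) no gene of the family passed. At 2 weeks Ccl2 (0.06, SE 1.59), Ccl3 (-0.13, SE 0.96) and Ccl4 (0.27, SE 0.77) had differences from their 24 hr effect well within the error, while Ccr2 differed by -3.66 (SE 0.93, unadjusted p = 0.00123, limma adjusted p = 0.712). No probe passed in that 2-week contrast (0% of 25956), whose sham arrays include the one that stood apart and in which the median of all probes was 0.78. Without that array the Ccr2 difference was -3.04 (limma adjusted p = 0.141).

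Ordered by group mean, Ccl2 was highest in TBI hippocampus at 24 hr (5.41 ± 1.101, SD, n = 3, on the smaller array design) and next in TBI cortex at 24 hr (4.54 ± 2.69, SD, n = 4), which overlapped. TBI cortex at 2 weeks followed (2.06 ± 0.76, SD, n = 4), then sham cortex at 24 hr (1.09 ± 2.09), TBI cortex at 6 months (0.57 ± 1.00) and TBI hippocampus at 2 weeks (0.32 ± 1.32), each overlapping its neighbor in that order. All other groups had means below 0.

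Other genes of the pathway were listed to see how the 8 genes sat among them. At 24 hr in the hippocampus, 2 of 6 testable other CC ligands rose against sham, Ccl12 by 3.62 (SE 0.70, limma adjusted p = 0.0240) and Ccl6 by 2.35, and Ccl24 fell by 0.76 on the log2 scale. None of 2 testable other CC receptors passed. Of 9 testable CXC, CX3C and XC ligands 3 rose, the B cell attractant Cxcl13 by 4.71, the neutrophil attractant Cxcl1 by 4.45 and Cxcl16 by 2.05. Of 10 testable inducers and NF-kB genes 4 rose, with the inflammatory cytokine Il1b at 2.79 and the pattern receptors Tlr4 and Tlr2 at 1.47 and 1.09.

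Leukocyte markers moved on the same arrays. In the hippocampus at 24 hr 4 of 5 testable macrophage and monocyte markers rose against sham, led by Cd14 (3.49), and 2 of 3 testable neutrophil markers, S100a9 (4.01) and S100a8 (3.497), while none of 7 microglial markers passed. The mean level of the 7 neutrophil markers on the array lay between -1.51 and -1.36 in sham and between -0.94 and 0.50 in TBI, and the granule protein genes Elane, Ltf, Camp and Np4 were not well above background in any of the 5 arrays. The 7 macrophage and monocyte markers had means between 1.31 and 1.44 in sham and between 2.45 and 3.29 in TBI. Their part in the chemokine differences was not tested.

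At 2 weeks in the hippocampus the marker picture was another one. Of 7 microglial markers 4 rose against sham, led by Csf1r (0.95), the receptor that keeps microglia alive, and 3 of 6 testable macrophage and monocyte markers rose, led by the lysosomal protein Cd68 (2.70). No neutrophil marker passed among 2 testable. The mean of the 7 microglial markers lay between 4.999 and 5.109 in sham and between 5.33 and 6.05 in TBI. Among pathway genes Tlr4 (1.03), Tlr2 (0.63) and the microglial fractalkine receptor Cx3cr1 (0.55) rose, and none of 6 testable other CC ligands or 5 testable other CC receptors did.

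In the cortex none of the pathway or marker genes passed against sham at 24 hr or 2 weeks. Against naive at 24 hr, 3 of 9 testable other CC ligands rose and 1 fell, 4 of 11 CXC, CX3C and XC ligands rose and 1 fell, and 5 of 10 inducers and NF-kB genes rose. On the same contrast 6 of 7 macrophage and monocyte markers, 3 of 3 testable neutrophil markers and 4 of 7 testable T and NK cell markers rose, while 3 of 7 microglial markers fell. At 2 weeks against naive, 1 of 7 testable other CC ligands and 2 of 8 CXC, CX3C and XC ligands rose and no leukocyte marker passed.

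Over the 24 groups of the larger array design, the group means of Ccl2 and Ccl7 correlated with a Pearson r of 0.947 and those of Ccl3 and Ccl4 with 0.937, and Ccl2 and Ccl3 with 0.885. Ccl5 followed the others less closely, at 0.522 with Ccl2 and 0.465 with Ccl3. Ccr1 stood at 0.787 with Ccl2 and 0.555 with Ccl5, and Ccr2 at 0.441 with Ccl2 and 0.541 with Ccl7. These are descriptions over group means that share arrays and slides, in groups of 4.

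Among 12103 other genes of that design, the closest to Ccl2 were Socs3, a feedback inhibitor of cytokine signaling (r = 0.964), Ncf4, a subunit of the phagocyte oxidase (0.956), and the cell death kinase Ripk3 (0.955). Closest to Ccl3 were the myeloid lectin receptor Clec12a (0.956), Ccl4 (0.937) and Ms4a6bl1 (0.933), and closest to Ccl4 were Ccl3, the lectin receptor Clec7a (0.919) and Ms4a6bl1 (0.908). Ccl7 was nearest Ccl2, Ncf4 (0.946) and Ccl6 (0.933). Ccl5 was nearest the cytotoxic granule gene Nkg7 (0.873), Rai14 (0.868) and Krt1 (0.859).

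Ccr1 was closest to the interferon-induced ligand Cxcl11 (0.943), the protease inhibitor Slpi (0.908) and the syndecan Sdc1 (0.902). Ccr2 was closest to Mcemp1 (0.912), Mcm10 (0.885) and Csrp3 (0.870). Ccl20 reached at most 0.729, with Gcsam, and its 2 probes disagreed where single sham arrays were high. Hippocampus sham replicate 4 of 2 weeks lay at 3.02 by the brighter probe and at -4.27, not well above background, by the other. Hippocampus sham replicate 1 of 6 months lay at 1.21 and -1.92, so those levels rest on 1 probe each.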

How the data were processed

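RNA was hybridized to 1-color Agilent arrays and read with Feature Extraction 11.5.1.1, per the file headers. Each array was taken to hold RNA of a single rat, although the name of cortex sham replicate 4 of 24 hr carried 2 animal numbers. The deposited scanner files hold a processed intensity per spot, background-subtracted by that software, with its flag for spots well above background. The value tables that the authors deposited hold a linear signal equal to the scanner intensity divided by about the 75th percentile of each array (percentile 74.9 to 75.3), except for replicate 3 of the cortex sham group at 2 weeks (15.9), although the methods name median normalization. The genome build behind the array designs is not given in the sources used here.

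Log2 processed intensities were centered on the median of each array, spots of 1 probe averaged, and groups compared with limma 3.58.1 in R 4.3.3, the 3 treatments of a tissue and interval in 1 fit. A probe was tested where all arrays of 1 or more of the compared groups had it well above background, p-values were adjusted by Benjamini-Hochberg over all of them, and an adjusted p under 0.05 was a call. A dim gene can thus enter the test only through the group where it is higher. Counts of such genes among the testable ones cannot be weighed against the shares of all probes. A gene was read from its probe of highest mean level. Where no array of a group was well above background, the difference is given as at least N-fold, the mean of the brighter group over the dimmer group's mean of, per array, the higher of the lowest signal among probes well above background and the probe's own. Every one of the 8 genes is named. Genes of the other lists are named where called between TBI and sham (up to 3 per list). Per-array values of Cd14, S100a8, Nkg7, Cd8a, Ttr, Kcnj13 and Cd68, and the undetected Ltf, Elane, Camp and Np4, were chosen after their values were seen. The 8 genes and all lists were chosen with earlier results of these data known. The code was tested on simulated data.

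Alternatives were the 75th percentile, quantile normalization, normexp background (offset 50), the authors' values, other filters, only the groups compared, a replicate block, a test without shared spread, and each array left out. The scanner files hold no mean signal, so normexp used the median signal. No 2 arrays were identical. Same-number TBI and sham arrays all correlated above 0.1, the cutoff set here, only in the cortex at 12 months (0.115 to 0.215). Sham and TBI arrays of that set shared a slide, and whether the rats were paired was not tested.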

Additional observations from a re-analysis of the deposited data

Results flagged for a closer look

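In 6 of the 117 groups of 4 arrays examined, 1 array lay far from the other 3, where chance gives about 1 in 20. Ccl4 lay at -1.878 in hippocampus TBI replicate 4 of 6 months, with its nearest neighbor at -0.682. Ccl5 lay at 0.715 in hippocampus sham replicate 1 of 12 months, with the nearest at 1.486. Ccl7 lay at -1.153 in cortex naive replicate 3 of 24 hr (nearest -0.575), at 0.328 in cortex TBI replicate 3 of 2 weeks (nearest 1.463) and at -2.21 in hippocampus sham replicate 4 of 2 weeks (nearest -1.807). Ccr1 lay at -3.767 in cortex TBI replicate 1 of 6 months, not well above background, with the nearest at -0.965. The effect of TBI on Ccl5 in the cortex differed between intervals, by -1.785 at 12 months relative to 24 hr (limma adjusted p = 0.0439). That difference passed in 5 of 24 alternatives, with an adjusted p of up to 0.255.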

How the results depend on the processing

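Counts below are of the 8 genes called. Shares of all probes called are given for the main analysis only, not for the alternatives. Between TBI and sham in the hippocampus at 24 hr the count of 4 became 0 with no filter on dim probes and 0 in the test without shared spread, and 2 to 5 with 1 array left out. At 2 weeks in the hippocampus the count of 2 became 0 with no filter, 0 with only the groups compared, 0 without shared spread, and 0 to 4 with 1 array left out, and against naive it was 2 to 4. In the cortex at 24 hr the count of 1 against sham became 4 with normexp background and 4 with no filter, and 0 with the 75th percentile, quantile normalization, the authors' values, the filter on at least 2 arrays, only the groups compared, the replicate block and no shared spread, and 0 to 4 with 1 array left out. Against naive the count of 7 was 4 to 7 with 1 array left out. In the cortex at 2 weeks the count of 1 against sham became 3 with quantile normalization and 4 with no filter, and 0 with the authors' values, only the groups compared, the replicate block and no shared spread, and 0 to 4 with 1 array left out. The count of 3 against naive became 1 with normexp background, 0 with the authors' values, 0 with the replicate block, and 0 to 2 with 1 array left out.

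With 1 array left out the count of 0 became 0 to 1 between sham and naive and between TBI and naive in the hippocampus at 6 months, and between TBI and naive in the hippocampus at 12 months. Between sham and naive it became 1 in the hippocampus at 6 months with the filter on at least 2 arrays, and, with no filter at 12 months, 2 for hippocampus and 1 for cortex. The 12-month against 24 hr effect in the cortex, a count of 1, became 2 with normexp background, 3 with no filter, and 0 with the 75th percentile, quantile normalization, the authors' values, the filter on at least 2 arrays and the replicate block, and 0 to 3 with 1 array left out. Where the causes of these changes are not given by fewer arrays or probes, the cause was not tested. No called gene turned direction under these alternatives. A slide block could not be fitted, because each group lay on 1 slide. Same-numbered TBI and sham arrays correlated between -0.379 and 0.298, and pairing by number was neither stated nor tested. In the cortex at 12 months the replicate block changed no call. Dim probes limit Ccl20, Ccr1 and Ccr2, most of whose arrays were not well above background.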
